A study of Mus musculus with 55 samples.

Results

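CCNA-GFP cells are E14Tg2a mouse embryonic stem (ES) cells of the 129/Ola strain that carry a cyclin A-GFP reporter of the cell cycle. The comparison described here sets 3 libraries of asynchronous CCNA-GFP cells against 3 libraries of the same line blocked in mitosis, and these 6 of the 55 samples of the series were chosen by their labels alone. Both groups were grown in serum and LIF and were otherwise labelled untreated. The mitotic cells were held for 4 h in RO-3306 at 10 µM, an inhibitor of CDK1 that stops cells before mitosis, then for 4 h in nocodazole at 50 ng/ml, which depolymerises microtubules, and were collected by shake-off. Asynchronous cells received neither drug, so that mitosis and the drug treatment cannot be told apart. Libraries were ribo-depleted and stranded, made from total RNA, and the deposited values are the pre-mRNA levels of 9911 genes in TPM, a unit that divides by gene length and by library total. The question was which gene classes stay low, equal or higher in mitotic cells.

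Pre-mRNA still holds its introns and is spliced soon after it is made, so that its level follows recent transcription more closely than the level of mRNA does. During mitosis the chromosomes condense, RNA polymerase II and many transcription factors leave chromatin, and the nuclear envelope breaks down, with a broad fall in transcription. The identity of ES cells rests on a network around Oct4 (Pou5f1), Sox2 and Nanog together with naive factors such as Esrrb, the Klf factors and Tfcp2l1.

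The cell type was checked on marker genes. Of 10 ES cell markers 9 were listed, and their summed level was 80.3–149 TPM in asynchronous and 34.0–52.0 TPM in mitotic libraries. Sox2 was not among the listed genes. Of 8 markers each, 1 of primitive endoderm, 5 of trophectoderm, 3 of mesoderm and neural fates and none of fibroblast feeders were listed. The trophectoderm markers summed to 8.04 TPM in asynchronous replicate 2 against 1.86 and 2.15 TPM in replicates 1 and 3, and to 3.35 TPM in mitotic replicate 2 against 1.25 and 1.32 TPM. Replicate 2 was also the highest at both stages for the markers of mesoderm and neural fates, at 5.23 TPM in asynchronous and 2.42 TPM in mitotic cells, where the other libraries lay between 0.675 and 1.10 TPM. Each result is a mean over 3 pairs of the same replicate number, and the part of these markers in the results was not tested. The 1 primitive endoderm marker listed, Lama1, was instead lowest in replicate 2 at both stages, at 0.806 TPM against 1.19 and 2.27 TPM in asynchronous cells and 0.565 TPM against 0.732 and 0.872 TPM in mitotic cells. In bulk RNA, fewer cells of a type and less RNA per cell cannot be told apart, and TPM do not give RNA per cell.

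Most genes had less pre-mRNA in mitotic than in asynchronous cells, by a small amount for the median gene. The TPM of the listed genes summed to 20501, 20541 and 28934 in asynchronous replicates 1, 2 and 3 and to 14734, 13747 and 17245 in mitotic ones, so that the groups did not overlap. The median gene had a difference, taken throughout as asynchronous minus mitotic on log2(TPM + 1), of 0.24, 0.30 and 0.43 in the 3 pairs, a mean of 0.33 ± 0.10 (SD, n = 3). A two-sided exact permutation test of the library medians gave p = 0.1, the smallest that 3 against 3 libraries allow. The fitted difference was positive, that is lower in mitosis, for 91.5% of genes. By limma with Benjamini-Hochberg adjustment over all 9911 genes, at an adjusted p under 0.05, 6975 genes (70.4%) were called lower in mitosis and 195 (1.97%) higher (72.3% in either direction), with 128 higher without replicate 1. A further measure counted a gene as held equal when its 95% interval lay wholly between -0.3 and 0.3, and 1331 genes (13.4%) were so, with 700 when replicate 1 was left out. In 5376 genes (54.2%) all asynchronous values lay above all mitotic values, and in 141 (1.42%) the order was the opposite.

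These counts rest on the scale of the deposited values. When each library was scaled to the same total over the listed genes, the median difference was 0.03, and 2457 genes (24.8%) were called lower and 2016 (20.3%) higher in mitosis. All 2457 were among those called lower on the deposited values, and 240 of the genes called lower there were called higher after scaling. Of the 195 called higher, 193 were called higher on both scales. When the libraries were instead divided by their steps, a unit of which low values are whole multiples and which differs between libraries, and rescaled to a geometric mean of 1, the median difference was 0.46, and 8098 genes were called lower and 85 higher. The classes below are read against the median of 0.33 as well as against zero. Among the 661 genes whose mean reached 5 TPM, where the added 1 TPM matters little, 486 (73.5%) were called lower, 13 (1.97%) higher and 31 (4.69%) held equal, and the median gene kept 68.2% of its asynchronous TPM in mitotic cells.

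**Figure D1:**
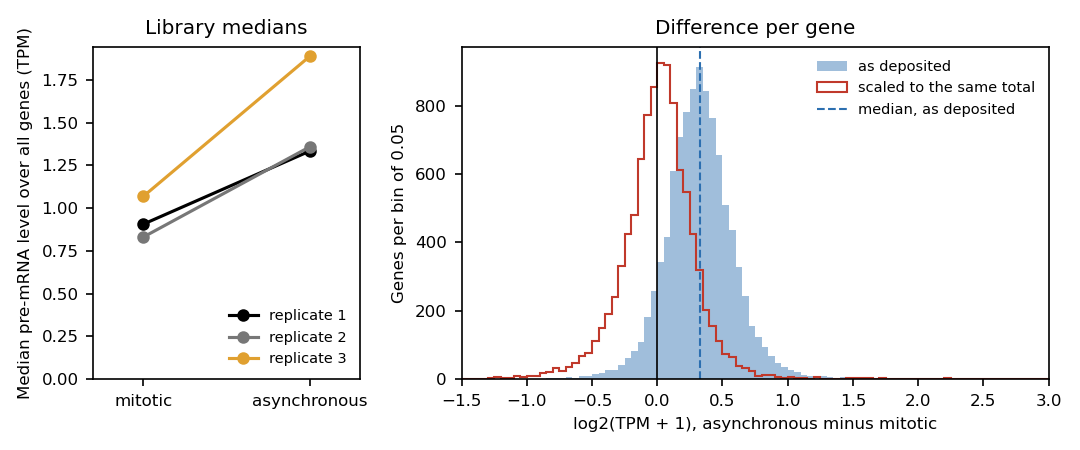
Left, the median pre-mRNA level over all 9911 genes (TPM) in each mitotic and asynchronous library, with lines joining libraries of the same replicate number. Right, the number of genes in bins of 0.05 of the log2(TPM + 1) difference, asynchronous minus mitotic, as deposited (filled) and after scaling to the same total (line). All 3 lines rise towards asynchronous cells, and the whole distribution lies about a median of 0.33 as deposited and 0.03 after scaling.

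The 12 largest falls in mitosis comprised histone H2B genes, ribosomal protein genes, gamma actin, Gtf3c2, Rbm4 and 2410002F23Rik. Hist1h2bq, a histone H2B gene at chr13:21806612-21810197 on the minus strand of GRCm38 (mm10), was at 318.6, 268.5 and 286.9 TPM in asynchronous replicates 1, 2 and 3 and at 21.8, 27.7 and 18.2 TPM in mitotic ones. Its mean was 291 ± 25.3 TPM in asynchronous and 22.6 ± 4.77 TPM in mitotic cells (SD, n = 3), a ratio of 12.9, with a difference of 3.65 (SE 0.16, limma adjusted p = 4.2e-12), the largest of all genes. How far reads of histone mRNA enter this value was not tested. Actg1, cytoplasmic gamma actin, was at 12.1, 22.6 and 22.0 TPM and fell to 1.67, 4.22 and 1.94 TPM, a difference of 2.48 (SE 0.21, limma adjusted p = 1.2e-07). The groups did not overlap for either gene. Its sister gene Actb, beta actin, went from 22.2, 20.5 and 22.4 to 7.70, 7.77 and 8.60 TPM, a smaller difference of 1.33 (SE 0.12). Gtf3c2, a subunit of the RNA polymerase III factor TFIIIC, was at 2.99, 3.29 and 5.81 TPM in asynchronous cells and at 0.10, 0.10 and 0.00 TPM in mitotic cells, a difference of 2.2 (SE 0.21). Rbm4, an RNA-binding splicing regulator, was at 3.34, 2.49 and 9.07 TPM and was listed at 0 in all 3 mitotic libraries. An exact 0 in an estimated value can be a failed estimate, and in the second line examined, CTCF-AID, the difference of Rbm4 was 0.10 and not called. 2410002F23Rik was at 8.32, 9.19 and 14.9 TPM against 1.36, 0.00 and 3.60 TPM, with mitotic replicate 2 listed at 0 (2.37, SE 0.32). In all, 144 genes were called lower in mitosis by at least 1 on the log2 scale.

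**Figure D2:**
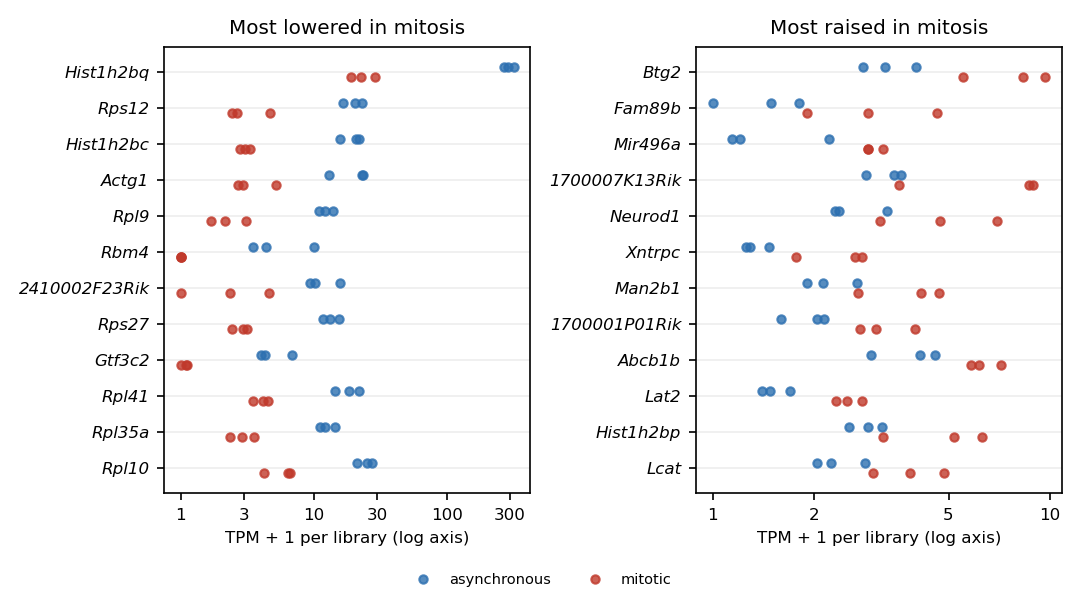
Level in each library (TPM + 1, log axis) of the 12 genes with the largest positive and the 12 with the largest negative difference among those called and of 1 sign in all 3 pairs, for asynchronous (blue) and mitotic (red) cells. On the left Hist1h2bq lies highest at both stages and no gene has overlapping groups, and on the right levels are lower and the groups overlap for 1700007K13Rik and Neurod1.

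Most histone genes were lower in mitosis, with 1 exception of either kind. Histone proteins are made in bulk in S phase from replication-dependent genes, and histone variants are made throughout the cycle. Of the 4 replication-dependent genes listed, all of them for H2B, Hist1h2bq, Hist1h2bc and Hist1h2br were called lower and Hist1h2bp higher. Hist1h2br, named after its values were seen, was not called after scaling to the same total (0.26). Hist1h2bc was at 19.7, 14.8 and 20.8 TPM in asynchronous and 2.30, 2.03 and 1.80 TPM in mitotic cells, with no overlap and a difference of 2.66 (SE 0.14). Hist1h2bp was at 2.18, 1.54 and 1.89 TPM and reached 4.18, 2.19 and 5.29 TPM in mitosis, just without overlap, a difference of -0.72 (SE 0.17, limma adjusted p = 0.0010). H2B genes are near-identical copies and reads can be split between them, so that the values of a single copy are uncertain. In their gene examples the authors plotted histone genes by mRNA and the other genes by pre-mRNA. The part of mRNA in the histone values given here was not tested. Among 8 histone variants 7 were called lower, with a median difference of 0.44 (0.33 over all genes), or 4 lower and 1 higher after scaling (median 0.14). Over all genes 70.4% were called lower and 1.97% higher, or 24.8% and 20.3% after scaling. H2afz, the variant H2A.Z, was at 5.08, 4.82 and 8.28 TPM and fell to 1.11, 1.69 and 1.15 TPM, a difference of 1.58 (SE 0.16). H2afj, an H2A variant whose longest transcript has 1 exon, was held equal at 14.8, 15.0 and 13.98 TPM in asynchronous and 15.5, 13.7 and 14.2 TPM in mitotic cells (difference 0.01, interval -0.23 to 0.25), and scaling to the same total turned its difference to -0.56.

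Genes for cytosolic ribosomal proteins, the protein part of the 80S ribosome, fell more than the median gene, and did so unevenly. Of 79 measured, 68 were called lower in mitosis, 2 higher and 4 held equal, against 70.4%, 1.97% and 13.4% of all genes. The median difference of the class was 0.76, against 0.33 over all genes, and the members ran from -0.62 to 2.67. A mean of at least 5 TPM was reached by 62 members, and genes of 5 to 20 TPM had a median of 0.47. After scaling to the same total the class had a median of 0.26, with 41 members called lower and 15 higher, against 24.8% and 20.3% of all genes. Rps12, of the small subunit, was at 15.6, 19.45 and 21.9 TPM in asynchronous and 1.43, 3.69 and 1.66 TPM in mitotic cells, a difference of 2.67 (SE 0.20, limma adjusted p = 2.3e-08). Rpl9, Rps27, Rpl41, Rpl35a and Rpl10 fell by a difference of 2.46, 2.25, 2.17, 2.12 and 2.11, each without overlap between the groups. At the other end, Rps16 was at 8.91, 11.9 and 12.3 TPM in asynchronous and rose to 18.5, 17.2 and 16.45 TPM in mitotic cells, with no overlap and a difference of -0.62 (SE 0.12, limma adjusted p = 0.00020). Rpl13a, the most abundant of the class and a host of small nucleolar RNA genes in its introns, was at 121, 100 and 92.2 TPM in asynchronous and 162, 147 and 118 TPM in mitotic cells. Its groups overlapped, each pair was higher in mitosis, and its difference of -0.43 (SE 0.12, limma adjusted p = 0.0033) came from a gene where reads of an intronic small RNA and of the pre-mRNA cannot be separated. Without replicate 1 Rpl13a was no longer called (-0.45). Rpl26, Rps19 and Rplp2, picked out after their values were seen, were held equal at 9.86, 18.4 and 17.7 TPM (asynchronous means), and their differences of 0.00, 0.07 and 0.07 became -0.56, -0.51 and -0.51 after scaling. Many ribosomal protein genes have processed pseudogenes, to which their reads can be split.

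**Figure D3:**
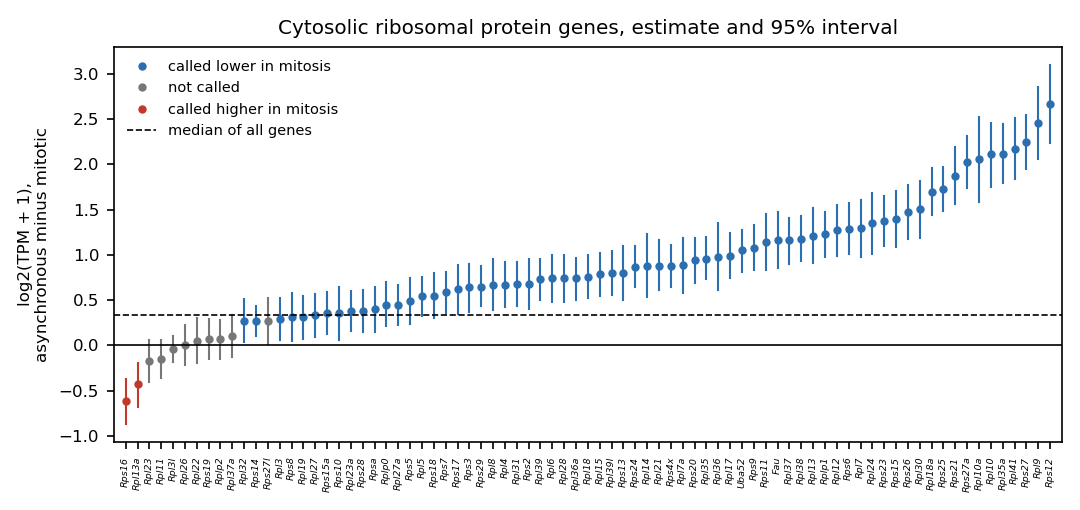
Difference (log2(TPM + 1), asynchronous minus mitotic) and its 95% limma interval for each of the 79 cytosolic ribosomal protein genes, ordered by the estimate and coloured by call, with the median of all genes as a dashed line. The members spread from -0.62 for Rps16 to 2.67 for Rps12. In mitosis 2 are called higher, and 15 after scaling to the same total, against 1.97% and 20.3% of all genes.

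Other genes of protein synthesis stayed closer to the median, with shares called lower to be read against 70.4% of all genes. After scaling to the same total the shares over all genes were 24.8% lower and 20.3% higher. Mitochondrial ribosomal protein genes had 57 of 74 members called lower and none higher, with a median of 0.44, and aminoacyl-tRNA synthetases, which charge tRNAs, had 30 of 36 and 0.41. At the same total the first had 23 lower and 15 higher and the second 12 lower and 4 higher. For translation initiation factors 34 of 49 were called lower, again at a median of 0.44 (12 lower and 14 higher after scaling), and Eif4a1, the RNA helicase of cap-binding complex eIF4F, was at 14.3, 13.2 and 23.5 TPM in asynchronous and 7.53, 6.88 and 7.93 TPM in mitotic cells (difference 1.05, SE 0.15). Ribosome biogenesis genes had 44 of 64 called lower and a median of 0.34, which became -0.10 after scaling to the same total, with 13 lower and 25 higher. Among these, Gnl3 (nucleostemin) fell from 13.3, 12.8 and 19.1 to 7.94, 6.48 and 7.11 TPM, with no overlap, while Nop58, a core protein of box C/D small nucleolar ribonucleoproteins, was at 15.2, 14.8 and 20.6 TPM in asynchronous and 15.9, 11.9 and 17.1 TPM in mitotic cells and was not called (0.16). Nop58 was called in opposite directions on other scales, higher in mitosis at the same total (-0.41) and lower with the library steps rescaled (0.40).

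Most pluripotency genes were lower in mitosis, by unequal amounts. All 9 listed ES cell markers, 11 of 13 naive factors (median 0.53) and 18 of 22 other ES cell identity genes (median 0.66) were called lower, and none of these was called higher, against 70.4% and 1.97% of all genes. Pou5f1, at chr17:35506018-35510772, was at 12.8, 8.25 and 15.1 TPM in asynchronous and 9.23, 4.95 and 11.1 TPM in mitotic cells. Its groups overlapped, since replicate 2 was low at both stages, and each pair was lower in mitosis (difference 0.50, SE 0.13, limma adjusted p = 0.0022), but the sign turned to -0.05 after scaling to the same total. Nanog, a homeobox factor of the core network, was at 6.73, 5.58 and 9.01 TPM and fell to 3.45, 3.82 and 4.72 TPM without overlap (0.68, SE 0.14), a call that scaling to the same total ended (0.19). The most abundant of the naive factors was Zfp42 (Rex1), a zinc finger protein used as a marker of naive ES cells, at 30.3, 20.9 and 48.1 TPM in asynchronous and 12.96, 9.73 and 16.4 TPM in mitotic cells. Zfp42 thus fell without overlap by 1.23 (SE 0.13, limma adjusted p = 6.5e-07), and by 0.67 after scaling. The Krüppel-like factor Klf5, at 10.3, 7.90 and 15.8 TPM, fell to 3.59, 2.59 and 4.47 TPM, the largest difference of the naive factors at 1.41 (SE 0.15). Klf2 and the T-box factor Tbx3 both had a difference of 1.00, the nuclear receptors Esrrb, Nr5a2 and Nr0b1 had 0.85, 0.64 and 0.46, and Klf4 had 0.53. At the same total Nr5a2 (0.23), Nr0b1 (0.18) and Klf4 (0.18) were not called. On that scale 6 naive factors and 12 other ES cell identity genes were called lower, with none and 2 higher, against 24.8% and 20.3% of all genes. Prdm14, a repressor of differentiation, lay at 0.45 at under 1 TPM in every library, and the smallest called differences were those of Sall4 (0.34) and Tfcp2l1 (0.33), which became -0.18 and -0.14 after scaling. Sall4 lost its call without replicate 1 (0.27) or 3 (0.22), Tfcp2l1 without replicate 2 (0.32) or 3 (0.31) and Nr0b1 without replicate 3 (0.26). Gbx2 (0.47, limma adjusted p = 0.055), which was called without replicate 2 (0.79), and Stat3, the transducer of LIF (0.16, interval -0.27 to 0.60), were not called. The summed markers of trophectoderm and of mesoderm and neural fates were highest in replicate 2, where Krt8 was at 2.53 TPM in asynchronous cells against 0.26 and 0.20 TPM. Pou5f1, Zfp42, Klf5, Tbx3, Esrrb, Klf4, Tfcp2l1, Prdm14, Nr0b1 and Stat3 had their lowest value at each stage in that replicate. Nanog, Nr5a2, Gbx2, Klf2, Sall4 and Dppa5a were lowest there in asynchronous cells only, and Klf2, Sall4 and Dppa5a had their highest mitotic value there. The summed ES cell markers were lowest there at both stages, at 80.3 TPM in asynchronous and 34.0 TPM in mitotic cells.

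Among other ES cell genes the largest fall was that of Tdgf1 (Cripto), a co-receptor for Nodal, from 14.4, 9.95 and 16.9 to 2.51, 2.03 and 2.87 TPM (2.07, SE 0.24, limma adjusted p = 2.0e-06). Dppa5a, an RNA-binding protein of pluripotent cells, went from 22.7, 17.8 and 19.1 to 5.12, 5.58 and 5.06 TPM, a difference of 1.73 (SE 0.12), also without overlap. Lin28b, which blocks let-7 maturation, had the smallest called difference of this group at 0.33, which was not called without replicate 2 (0.24) or 3 (0.32) or after scaling (0.05). Genes of the FGF, LIF and Wnt pathways had 26 of 33 called lower (median 0.51) and those of BMP and Nodal signalling 17 of 21 (median 0.40), with none higher, against 70.4% and 1.97% of all genes. After scaling the first group had 14 lower and 4 higher and the second 10 lower and 3 higher, against 24.8% and 20.3% of all genes. Pim3, a kinase gene downstream of LIF, was at 9.83, 6.87 and 12.8 TPM and fell to 2.58, 2.03 and 3.88 TPM (1.49, SE 0.16), and Lefty1, an antagonist of Nodal, from 2.76, 4.42 and 1.51 to 0.66, 0.50 and 0.39 TPM (1.29, SE 0.15). The groups did not overlap in these 4 genes with values shown.

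Immediate early genes, which respond to serum within minutes, did not move as one class: 7 of 17 were called lower and 1 higher, with a median of 0.31, against 70.4% lower and 1.97% higher over all genes. After scaling 4 were lower and 4 higher, against 24.8% and 20.3% of all genes. Egr1, a zinc finger factor, was at 4.99, 4.86 and 2.44 TPM in asynchronous and 0.87, 0.53 and 0.51 TPM in mitotic cells, a difference of 1.60 (SE 0.17, limma adjusted p = 7.7e-07). Fos was at 0.38, 2.65 and 0.20 TPM against 0.49, 0.37 and 0.20 TPM and was not called (0.44, interval 0.01 to 0.87, limma adjusted p = 0.061). Only asynchronous replicate 2 stood above the rest for Fos, so that the estimate rests on that library, and Fos was called without replicate 1 (0.71) or 3 (0.65). Myc, a regulator of growth genes, fell from 2.96, 1.57 and 2.41 to 0.63, 0.73 and 0.98 TPM without overlap (0.88, SE 0.15). Of 12 genes of its network 7 were called lower and none higher, against 70.4% and 1.97% of all genes. The network had 4 lower and 2 higher after scaling.

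Genes that drive mitosis were themselves mostly lower in mitotic cells. Of 68 mitotic regulators 61 were called lower, 1 was called higher and 3 were held equal, against 70.4%, 1.97% and 13.4% of all genes. Their median was 0.52 (0.33 over all genes). After scaling to the same total 37 were lower and 9 higher, against 24.8% and 20.3% of all genes. The median was then 0.17 (0.03 over all genes). The promoters of many such genes hold CCAAT boxes and the CHR element (TTTGAA), through which their transcription peaks in G2 and M. To show where these letters lie, the 150 bases before the RefSeq start (GRCm38.p6, gene strand, 5′ to 3′) are printed for 4 members that behaved differently, with CCAAT and TTTGAA, or their reverse complements ATTGG and TTCAAA, in capitals.
Plk1 (chr7:122159285-122159434, plus strand): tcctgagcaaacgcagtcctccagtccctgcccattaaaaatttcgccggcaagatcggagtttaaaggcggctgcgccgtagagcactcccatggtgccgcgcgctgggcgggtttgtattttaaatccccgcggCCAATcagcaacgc
Cdc20 (chr4:118437344-118437493, minus strand): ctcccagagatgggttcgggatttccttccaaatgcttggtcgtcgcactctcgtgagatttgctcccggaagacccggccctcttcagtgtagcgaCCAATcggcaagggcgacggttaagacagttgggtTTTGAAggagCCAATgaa
Ccnb1 (chr13:100786487-100786636, minus strand): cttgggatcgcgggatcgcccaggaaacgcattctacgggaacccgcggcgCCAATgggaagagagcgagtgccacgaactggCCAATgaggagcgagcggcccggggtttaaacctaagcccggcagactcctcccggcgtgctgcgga
Kif18b (chr11:102925125-102925274, minus strand): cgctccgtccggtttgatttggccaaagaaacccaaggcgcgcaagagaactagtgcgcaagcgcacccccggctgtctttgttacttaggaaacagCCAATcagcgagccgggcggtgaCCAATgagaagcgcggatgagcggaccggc

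Plk1, the polo-like kinase of mitotic entry and spindle assembly, was at 2.55, 2.10 and 3.87 TPM in asynchronous and 0.59, 0.63 and 0.62 TPM in mitotic cells. The groups did not overlap, and its difference of 1.22 (SE 0.11, limma adjusted p = 2.9e-07) was the largest of the mitotic regulators, with 0.99 after scaling. Cdc20, the activator of the anaphase-promoting complex, was at 5.02, 6.36 and 7.76 TPM and 4.53, 4.68 and 5.23 TPM, with overlap and a difference of 0.33 (limma adjusted p = 0.013) that turned to -0.19 after scaling and was not called without replicate 2 (0.31) or 3 (0.25). Ccnb1, cyclin B1, was the most abundant member, at 12.3, 13.7 and 17.6 TPM against 14.1, 11.1 and 15.1 TPM. Its values overlapped and it was not called (0.10, interval -0.14 to 0.34), and it too turned after scaling, to -0.47. Kif18b, a kinesin that shortens astral microtubules, was the single member called higher: it was at 2.78, 3.64 and 4.94 TPM in asynchronous and 6.20, 5.38 and 6.94 TPM in mitotic cells, without overlap (-0.60, SE 0.13, limma adjusted p = 0.00070). The 3 members held equal, named after their values were seen, were Cks2, Gtse1 and Bub3, at differences of -0.02, 0.01 and 0.03, and these became -0.58, -0.56 and -0.49 after scaling. Of the 55 mitotic regulators with a promoter entry, 41 (74.5%) held CCAAT on either strand, against 30.0% of 7949 listed genes, and 19 (34.5%) held TTTGAA, against 4.89%. Among the 48 called lower 72.9% held CCAAT and 33.3% TTTGAA, and among the 7 others 85.7% and 42.9%, so that members with and without the call both held these letters. A match of letters is a description and not evidence of binding.

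Machinery that binds or shapes chromosomes was lower too on the deposited scale, where 70.4% of all genes were called lower with a median of 0.33. All 7 condensin genes were called lower within a narrow range, from 0.46 for Ncapd3 to 0.61 for Ncapd2, and none was called in either direction after scaling to the same total. Ctcf and cohesin genes had 13 of 14 called lower (median 0.43), but 3 lower and 1 higher after scaling (median -0.01). Over all genes 24.8% were lower and 20.3% higher after scaling. Rad21, the cohesin subunit cut at anaphase, was at 6.56, 5.28 and 9.80 TPM and fell to 2.82, 2.23 and 3.54 TPM (1.06, SE 0.11), Ctcf itself went from 4.47, 4.42 and 7.18 to 2.86, 2.89 and 3.23 TPM (0.64, SE 0.12), and neither overlapped. Stag2 had the smallest called difference of the class at 0.27, or -0.08 after scaling, and was not called without replicate 2 (0.22) or 3 (0.28). Cdk1, the kinase inhibited by RO-3306, was at 6.64, 7.44 and 9.48 TPM and 4.91, 4.95 and 5.93 TPM without overlap (0.49, SE 0.13), or -0.03 after scaling. Cyclin A2 (Ccna2) was at 2.00, 1.82 and 2.70 TPM and 1.18, 0.86 and 1.27 TPM (0.59, SE 0.11).

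Genes of G1 and S phase were called lower at about the share of all genes (70.4%). After scaling to the same total 24.8% of all genes were lower and 20.3% higher. Of 12 G1 cyclins, CDKs and CDK inhibitors 8 were called lower (median 0.50), or 4 lower and 1 higher after scaling, among them Cdk4 at 1.03, Cdk2 at 0.86, Ccnd1 at 0.73 and Ccne1 at 0.69, of which Ccne1 was not called after scaling (0.25). Cdk4, the kinase partner of D cyclins, was at 5.74, 4.70 and 8.95 TPM in asynchronous and 2.79, 2.16 and 2.76 TPM in mitotic cells, without overlap. Replication licensing and fork genes had 42 of 56 called lower and none higher (median 0.40), or 12 lower and 10 higher after scaling to the same total (median 0.02), with Tk1, thymidine kinase, furthest at 1.11, while Mcm7, a subunit of the replicative helicase, was at 7.16, 8.32 and 10.4 TPM against 8.68, 4.92 and 8.18 TPM and was not called, though it was called lower without replicate 1 (0.48) and with the library steps rescaled (0.46). The E2F and retinoblastoma families, which gate S phase entry, were mixed: 8 of 13 were called lower and 1 higher, or 2 lower and 6 higher after scaling. Their median of 0.26 turned to -0.08 after scaling. E2f1 was at 2.70, 2.10 and 3.49 TPM in asynchronous and 3.73, 2.56 and 4.10 TPM in mitotic cells, higher in mitosis in each pair although the groups overlapped (-0.25, SE 0.10, limma adjusted p = 0.040), and leaving out any 1 replicate ended the call, at -0.19 to -0.28. E2f3 was called lower (0.58), though not without replicate 3 (0.39) or after scaling (0.10), and Rb1 was held equal (0.01, interval -0.19 to 0.22), with Rb1 at -0.36 after scaling.

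MicroRNA genes held some of the largest differences. The values are reads over the precursor gene or its host, not of the mature microRNA. Of 15 microRNA and small nucleolar RNA genes listed, 10 were called lower and 2 higher (median 0.59), against 70.4% and 1.97% of all genes. After scaling to the same total 7 were lower and 1 higher, against 24.8% and 20.3% of all genes. For 11 of the 15 RefSeq (GRCm38.p6) gave a mature sequence. The sequences below come from 3 genes with large differences, 1 arm of each hairpin being shown, written 5′ to 3′ with the seed, bases 2 to 8, in capitals. Mir17hg encodes the miR-17-92 cluster, in which miR-17 and miR-20a share 1 seed and miR-19a and miR-19b another.
miR-17-5p (chr14:115043684-115043706, plus strand): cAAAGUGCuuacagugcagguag
miR-20a-5p (chr14:115044183-115044205, plus strand): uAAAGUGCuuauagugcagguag
miR-18a-5p (chr14:115043867-115043889, plus strand): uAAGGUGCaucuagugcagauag
miR-19a-3p (chr14:115044048-115044070, plus strand): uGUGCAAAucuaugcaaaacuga
miR-19b-3p (chr14:115044358-115044380, plus strand): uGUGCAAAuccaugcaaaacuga
miR-92a-3p (chr14:115044476-115044496, plus strand): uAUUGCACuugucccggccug
miR-34a-5p (chr4:150068473-150068494, plus strand): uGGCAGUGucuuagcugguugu
miR-496a-3p (chr12:109739165-109739186, plus strand): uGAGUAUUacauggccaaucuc

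Mir17hg, a host gene for microRNAs that promote proliferation, was at 22.9, 30.5 and 20.1 TPM in asynchronous and 5.75, 7.77 and 6.13 TPM in mitotic cells. It fell without overlap by 1.74 (SE 0.12, limma adjusted p = 6.3e-09), the largest difference of its class, and by 1.22 after scaling. Mir34a, the precursor of a microRNA induced by p53, was picked out after its values were seen: it was at 8.01, 9.10 and 9.48 TPM and fell to 0.66, 4.05 and 2.47 TPM (1.68, SE 0.32, limma adjusted p = 0.00020). Mir496a, within the Dlk1-Dio3 imprinted region of chromosome 12, went the other way: it was at 1.22, 0.21 and 0.15 TPM in asynchronous and 1.88, 2.19 and 1.88 TPM in mitotic cells, without overlap (-1.04, SE 0.18, limma adjusted p = 7.4e-05). It lies at chr12:109739119-109739197, inside the span of its long noncoding host Mirg at chr12:109729764-109749460 on the same strand. Mirg was at 5.69, 7.44 and 7.93 TPM and fell to 1.32, 2.23 and 1.41 TPM (1.60, SE 0.13), so that the precursor and the transcript around it differed in opposite directions, and reads over the precursor cannot be assigned to one of them for certain. Meg3, the maternally expressed RNA upstream of Mirg, was the most abundant imprinted gene at 14.2, 20.0 and 24.0 TPM and 11.8, 17.5 and 15.0 TPM, with overlap (0.36), and it turned to -0.21 after scaling and was not called without replicate 3 (0.22). Mir290a and Mir294, neighbours in the ES cell cluster on chromosome 7 and also picked out after their values were seen, had differences of -0.33 and 0.59 with every value at or below 1.13 TPM, and Mir290a was not called without replicate 3 (-0.15). Of 22 nuclear and snoRNA-host long noncoding RNAs 13 were called lower and 1 higher, against 70.4% and 1.97% of all genes. With scaling 4 were lower and 4 higher, against 24.8% and 20.3% of all genes. The 1 called higher on the deposited values was Neat1, the scaffold of paraspeckles, at 3.80, 5.09 and 7.96 TPM against 5.47, 8.97 and 7.42 TPM. Its difference was -0.35, with overlap, and it was not called without replicate 1 (-0.31) or 2 (-0.17).

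Most other classes lay near the background of 70.4% called lower. Cholesterol synthesis and SREBP genes had the highest share among classes of over 20 members, with 24 of 25 called lower (median 0.44), and Fdps, farnesyl diphosphate synthase, fell furthest, from 1.54, 1.41 and 1.37 to 0.28, 0.27 and 0.31 TPM (0.92, SE 0.11). After scaling to the same total 10 of the 25 were still lower and 1 was higher. The scaled counts here are to be read against 24.8% lower and 20.3% higher over all genes. Glycolysis genes had 16 of 18 called lower at a median of 0.67, and 12 lower and none higher after scaling. Gapdh pre-mRNA was at 1.42, 2.49 and 2.47 TPM and fell to 0.35, 0.53 and 0.42 TPM (1.11, SE 0.12), while Pkm, the most abundant member, was at 19.1, 22.8 and 24.8 TPM and 12.9, 17.2 and 16.5 TPM (0.49, or -0.08 after scaling). Zfp genes, mostly zinc finger repressors, had 235 of 271 called lower and 3 higher, with a median of 0.40. Splicing factors had 82 of 101 (median 0.44), with Hnrnpu at 19.5, 21.4 and 26.2 TPM falling to 13.8, 10.99 and 13.2 TPM. RNA polymerase II subunits, general factors and Mediator had 51 of 75 lower and 2 higher (median 0.37), and pause release and elongation factors 20 of 28 (median 0.41). The list of RNA polymerase II genes also held Taf1d, of an RNA polymerase I factor. Nuclear-encoded oxidative phosphorylation genes had 63 of 83 lower and 1 higher (0.37) and proteasome subunits 27 of 34 (0.40). After scaling to the same total, splicing factors had 29 lower and 24 higher, RNA polymerase II genes 17 and 19, elongation factors 7 and 9, oxidative phosphorylation genes 25 and 16, proteasome subunits 7 and 11 and Zfp genes 118 and 23. Nuclear pore and transport genes had 42 of 59 called lower at 0.37, but 6 lower and 21 higher after scaling. Nup62, a channel nucleoporin, fell furthest of these, from 3.89, 3.92 and 7.53 to 0.35, 0.80 and 1.15 TPM (1.77, SE 0.18).

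**Figure D4:**
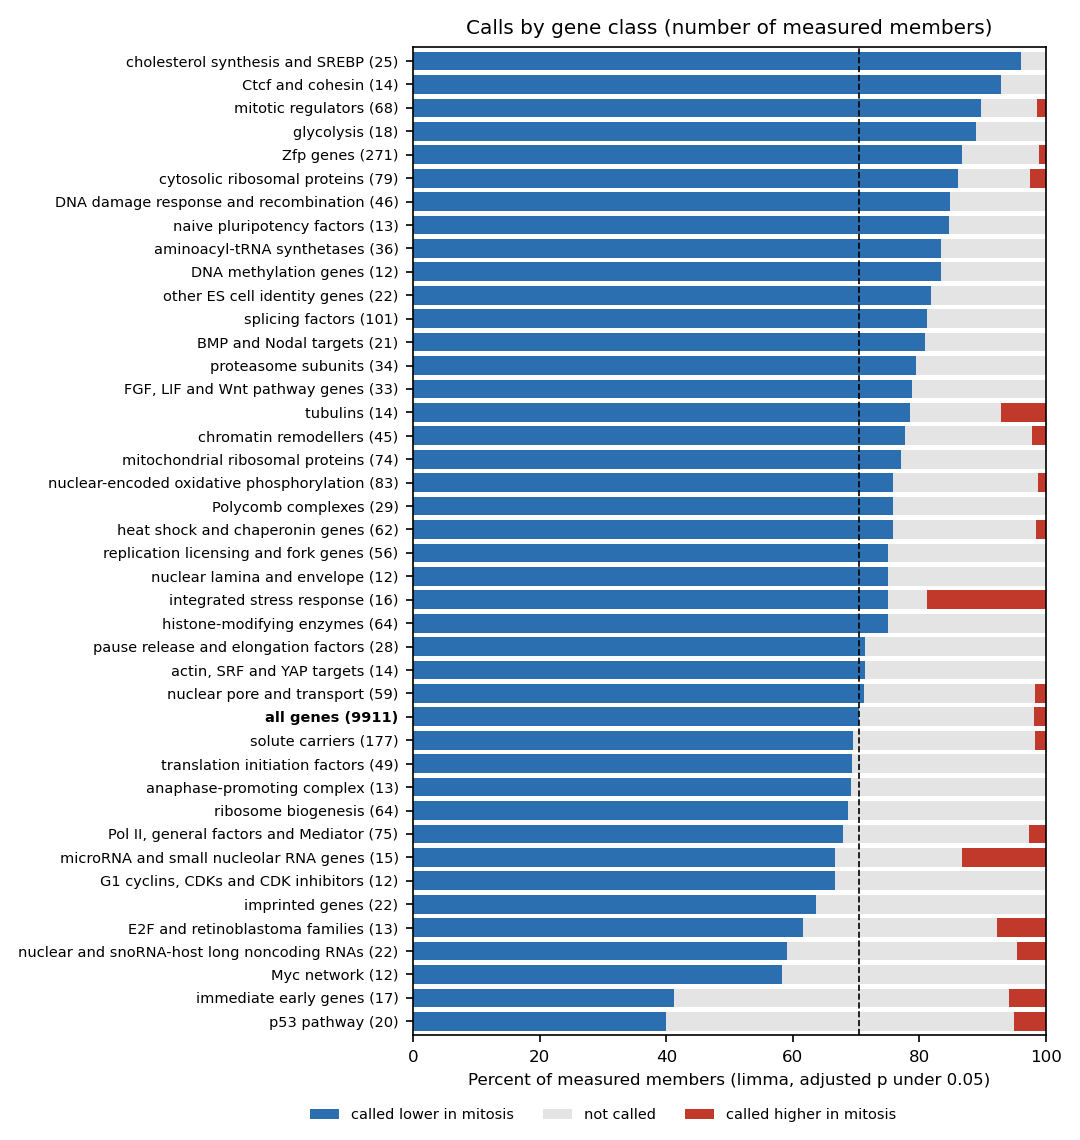
Percent of the measured members of each gene class called lower in mitosis (blue), not called (grey) and called higher (red) by limma at an adjusted p under 0.05, on the deposited values, for classes of 12 or more members, with all 9911 genes in bold and their 70.4% as a dashed line. Cholesterol synthesis genes lie at the top and immediate early genes and the p53 pathway at the bottom; after scaling to the same total 24.8% of all genes are called lower and 20.3% higher.

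The genes higher in mitosis were few among those listed, and the change was small for most. Genes were listed by their level in asynchronous cells or after release and not in mitotic cells, so that this count can miss some. Of the 195, 182 were higher in mitosis in all 3 pairs and 40 had a difference of -0.5 or below. Btg2, an antiproliferative gene that responds to serum and to p53, led them at chr1:134075170-134079120: it was at 1.80, 3.00 and 2.24 TPM in asynchronous and 8.68, 4.52 and 7.31 TPM in mitotic cells. The groups did not overlap, replicate 2 differed least, and the difference was -1.21 (SE 0.19, limma adjusted p = 4.2e-05). Fam89b followed, at 0.00, 0.81 and 0.49 TPM against 1.88, 3.62 and 0.90 TPM (-1.08, SE 0.17). Neurod1, a neural bHLH factor, was at 2.29, 1.31 and 1.37 TPM against 5.96, 2.13 and 3.71 TPM, with overlap, and Abcb1b, a multidrug efflux pump, was at 1.94, 3.55 and 3.11 TPM against 5.16, 4.82 and 6.16 TPM, without (-0.84 and -0.74). The lysosomal mannosidase Man2b1, the plasma enzyme gene Lcat and the adaptor Lat2 had differences of -0.75, -0.70 and -0.73, and the other genes among the 12 most raised were 1700007K13Rik (-0.99), Xntrpc (-0.81) and 1700001P01Rik (-0.75), beside Mir496a and Hist1h2bp described above.

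Some abundant genes were also higher in mitosis on the deposited scale, and several of these calls depended on it. Cfl1, cofilin, which severs actin filaments, was at 5.57, 5.76 and 6.37 TPM in asynchronous and 9.09, 10.9 and 9.87 TPM in mitotic cells, clear of overlap (-0.67, SE 0.11, limma adjusted p = 3.8e-05). Eef1d, a subunit of the translation elongation factor 1 complex, was at 7.25, 7.95 and 10.7 TPM against 13.03, 10.9 and 16.4 TPM (-0.58, SE 0.12). Chd4, the ATPase of the NuRD complex, was at 5.92, 5.87 and 10.3 TPM against 10.1, 9.57 and 12.03 TPM, with overlap from asynchronous replicate 3 (-0.50, SE 0.12). Ccnb1ip1, a ubiquitin ligase gene, and the long noncoding RNA Gt(ROSA)26Sor had -0.48 and -0.44, the latter not called without replicate 2 (-0.27). With the steps of the libraries rescaled to a geometric mean of 1, Chd4 (-0.28), Ccnb1ip1 (-0.25), Gt(ROSA)26Sor (-0.21) and Rcc1, described below (-0.24), were not called, and with each library divided by its own step Eef1d was not called either (-0.31), while Cfl1 was called on both scales. Tubb3, a beta tubulin of neurons, was the single tubulin of 14 called higher, at 1.39, 0.76 and 1.22 TPM against 2.37, 1.86 and 2.78 TPM (-0.65, SE 0.10). Of the 14 tubulins 11 were called lower, Tuba1c most at 1.06, where 70.4% of all genes were called lower and 1.97% higher. After scaling to the same total 6 tubulins were lower and 2 higher, against 24.8% and 20.3% of all genes. Tubb5, the most abundant tubulin, was at 9.11, 7.46 and 11.9 TPM against 10.9, 9.13 and 12.7 TPM and was not called, but was called higher after scaling (-0.76) and lay at 0.03 with the library steps rescaled. Rcc1, the exchange factor of Ran, was at 3.39, 3.52 and 4.82 TPM and rose to 5.47, 5.71 and 5.71 TPM without overlap (-0.44, SE 0.14).

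Of the classes of 12 or more members the p53 pathway had the smallest share called lower. Of its 20 genes 8 were called lower and 1 higher, Btg2, and the median of 0.15 turned to -0.34 after scaling, with 2 lower and 12 higher. The shares over all genes were 70.4% lower and 1.97% higher, or 24.8% and 20.3% after scaling. Trp53 itself was at 6.96, 7.6 and 10.6 TPM and fell to 4.15, 4.28 and 4.78 TPM (0.78, SE 0.13), and Mdm4, a p53 inhibitor and the most abundant member, was not called at 11.3, 9.70 and 18.3 TPM against 11.7, 8.50 and 14.7 TPM (0.14). Mdm4 was called higher in mitosis at the same total (-0.42) and lower with the library steps rescaled (0.37). Genes of the integrated stress response were called in both directions: 12 of 16 were lower and 3 higher (median 0.46), against 70.4% and 1.97% of all genes, and 4 were lower and 4 higher after scaling. Asns, asparagine synthetase, went from 3.57, 3.59 and 6.19 to 1.67, 1.59 and 1.88 TPM (0.97, SE 0.13), while Ddit3 (CHOP) was at 2.18, 1.66 and 3.52 TPM against 4.46, 2.92 and 4.81 TPM, higher in mitosis in each pair with overlap between groups (-0.57, SE 0.13, limma adjusted p = 0.00099). The other 2 called higher were Atf5 at -0.39 and Ddit4 at -0.36, named here after their values were seen, and Ddit4 was not called without replicate 1 (-0.26). With each library divided by its own step, Ddit3 (-0.27) and Ddit4 (-0.11) were not called. In CTCF-AID cells 9 of the 16 genes were called lower and none higher, with Ddit3 at -0.35 and not called. Heat shock and chaperonin genes had 47 of 62 lower at a median of 0.39 (20 lower and 12 higher after scaling), with Cct4, a chaperonin subunit, at 1.05, and the single gene called higher, Hspg2, encodes the basement membrane proteoglycan perlecan and not a chaperone (-0.35, not called without replicate 1 at -0.28).

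A p that misses the threshold does not show equality, so genes held equal were counted by their interval. Of the 1331, 1252 were not called and 79 were called with a small difference, and another 1489 genes were neither called nor held equal. A mean level of 0.5 TPM or less was frequent among them, since the added 1 TPM narrows differences of low genes: 42.0% of the 1764 genes at that level were held equal, against 31 of the 661 at 5 TPM or more. These 31 included the chaperonin Hspd1, Nap1l1 and Nasp, which are histone chaperones, and Pcna, the sliding clamp of replication, as well as H2afj, Cks2, Gtse1 and the import receptor Ipo7, and of these all but H2afj and Ipo7 are named after their values were seen. Hspd1 was at 13.4, 13.4 and 15.5 TPM in asynchronous and 12.96, 14.1 and 14.5 TPM in mitotic cells (0.02, interval -0.20 to 0.24). Pcna was at 7.22, 5.97 and 9.56 TPM against 7.94, 6.24 and 9.31 TPM (-0.05, interval -0.30 to 0.20). Scaling to the same total moved Hspd1, Pcna, Nasp, Nap1l1 and Ipo7 to -0.55, -0.60, -0.59, -0.61 and -0.62. Equal TPM thus went with a larger share of the summed TPM of the listed genes in mitosis.

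The calls varied with gene structure. The annotation (GENCODE on GRCm38) matched 9900 of the 9911 symbols. Genes called lower spanned a median of 24800 bp with 9 exons in the longest transcript, those called higher 10200 bp with 5 exons, and those held equal 21100 bp with 8 exons, against 22600 bp and 9 exons over all genes. Of the 187 genes of up to 2 kb, 45.5% were called lower and 8.56% higher, and of the 314 genes over 200 kb 85.0% and 0.318%, while the median difference was 0.26 and 0.32. The median standard error fell from 0.13 to 0.08 between these bins, so that the calls in short genes rest on wider errors. In the 31 genes with 1 exon, where pre-mRNA and mRNA cannot be told apart, the median was 0.17 and 19.4% were called higher, and the median turned to -0.13 after scaling to the same total. Antisense transcripts had a median of 0.17 (87 genes) and long intergenic noncoding RNAs 0.27 (105 genes), against 0.33 for protein-coding genes. Genes of a mean of 0.5 TPM or less had a median of 0.16 and those of 5 to 20 TPM one of 0.47, on a scale that shrinks differences of low genes.

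The same comparison in a second E14Tg2a line had mostly the same sign, at a smaller size on the deposited scale. CTCF-AID cells carry an auxin-inducible degron on CTCF, and 3 asynchronous and 3 mitotic libraries without auxin (IAA) were compared in the same way within their own table of 10237 genes. Their pair medians were 0.11, 0.08 and 0.16, while after scaling to the same total the median was 0.03 in both lines. On the deposited values 3143 genes (30.7%) were called lower and 459 (4.48%) higher in mitosis, with 669 lower and 80 higher without replicate 1, 2540 and 285 without replicate 2, and 1327 and 214 without replicate 3. Each table was fitted on its own and no test was made between them, since how the scales of the tables relate is not given in the sources used here. Of the 6975 genes lower in CCNA-GFP cells 6774 were listed, 5848 had the same sign and 2821 were called lower there, while 37 were called higher. Of the 195 higher genes 184 were listed, 172 had the same sign and 104 were called higher, with 1 called lower, Insl3, a call that CCNA-GFP cells lost without replicate 1 (-0.19) or 3 (-0.44). Among the 9574 genes listed in both lines, 4872 were lower in mitosis in all 6 pairs and 232 higher, and the rank correlation across genes of the differences was 0.65, a description over genes that share libraries. Hist1h2bq (4.11), Rps12 (2.86), Actg1 (2.77), Egr1 (2.11), Dppa5a (1.68), Plk1 (1.15), Btg2 (-1.33), Mir496a (-1.69) and Kif18b (-0.59) differed there as in the first line and were called in both. Pou5f1 was at 0.02 and Nanog at 0.24, neither called, and the medians of the naive factors and of cytosolic ribosomal proteins were 0.34 and 0.37, against 0.12 over all genes.

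**Figure D5:**
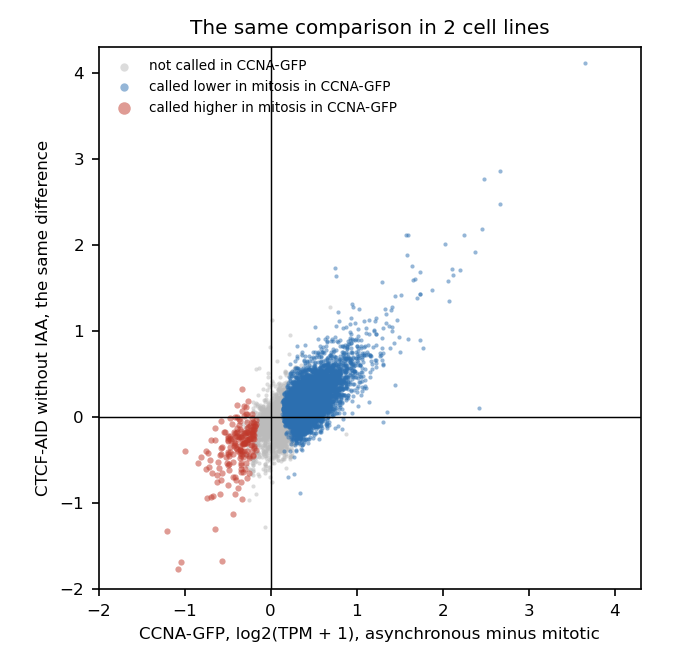
Difference per gene (log2(TPM + 1), asynchronous minus mitotic) in CCNA-GFP cells (x axis) and in CTCF-AID cells without IAA (y axis) for the 9574 genes in both tables, coloured by the call in CCNA-GFP cells. Most genes called lower in CCNA-GFP cells lie above zero on both axes, Hist1h2bq lies furthest out, and Rbm4 lies at 2.42 and 0.10; both axes are on deposited values, whose medians are 0.33 and 0.12.

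The first libraries after release from nocodazole set these mitotic levels beside those of cells leaving mitosis. At 20 min (replicates 1 and 2) and 30 min (replicates 1 and 3) the levels of Hist1h2bq were 19.8, 19.1, 26.4 and 16.8 TPM, on either side of the mitotic values of the same replicates. Plk1 was at 0.66, 0.65, 0.79 and 0.75 TPM, each above the mitotic value of the same replicate and below every asynchronous value. Btg2 was at 10.2, 5.27, 13.3 and 10.1 TPM, likewise above the mitotic values of the same replicates. Egr1 was at 1.36, 1.02, 2.16 and 0.91 TPM, likewise above the mitotic values of 0.87, 0.53 and 0.51 TPM and below the asynchronous values. No test was made on these libraries here, since they share the mitotic libraries with the comparison above.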

How the data were processed

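Stranded, ribo-depleted RNA-seq reads were mapped by the authors with STAR (mm10), and RSEM gave the level of a pre-mRNA isoform added for each gene; versions are not given in the sources used here. The deposited values are TPM of that isoform. RefSeq genes were kept by the authors if over 0.5 TPM when asynchronous, or in 2 or more samples after release, but never filtered on mitotic cells, so a gene seen only in mitosis would not be listed. TPM hold no counts and the depth is unknown. Low values are whole multiples of a step in each library, 2.30–2.91 times the rounding unit in asynchronous and 2.81–3.48 times in mitotic libraries, a factor that the sources used here do not name. The values of the CTCF-AID table came from the same pipeline, and how the scales of the 2 tables relate is not given.

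Differences were fitted on log2(TPM + 1) with limma 3.58.1 in R 4.3.3 (trend, two-sided) over all 19 CCNA-GFP libraries, with stage and replicate number as terms, so that asynchronous minus mitotic is the mean of 3 pairs, and p-values were adjusted by Benjamini-Hochberg over 9911 genes. The 18 CTCF-AID libraries without IAA were fitted likewise. A fold on this scale understates the change of low genes. Asynchronous and mitotic libraries of the same number deviated together (Pearson r across genes 0.469, 0.665 and 0.602 in the 3 pairs, and 0.546, 0.676 and 0.599 in CTCF-AID), so the numbers were used as pairs; whether they mark separate cultures is not stated in the labels, and p-values measure the spread between these libraries. On simulated data the fit recovered 15.5%, 78.5% and 100% of 200 genes changed by 0.3, 0.5 and 1.0. False calls made up 8.82%, 6.55% and 4.31% of the genes called there. The simulation changed only these 200 of 9911 genes, equally in both directions, whereas 72.3% of genes were called in the real data. Its recovered and false shares therefore do not carry over to the real calls.

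Genes were named by rule: the 12 largest called differences of 1 sign in all 3 pairs in each direction, the 6 largest in each direction at a mean of at least 5 TPM, the largest and smallest called difference and the most abundant member of each of 50 gene lists, and set pluripotency and cell cycle genes. Genes outside it are marked as chosen after their values were seen. The members and lists were chosen with earlier results of these data known. Lists were given by counts and medians, with no test. Alternatives were other pseudocounts, a level minimum, other scalings, the 6 libraries alone, no replicate block, a stricter threshold and leaving out each replicate, and 1 scaling, the steps rescaled to a geometric mean of 1, was added after seeing the data. Tables were made in Python 3.11.15 (pandas 2.3.3, numpy 2.4.6), permutations with scipy 1.17.1 and plots with matplotlib 3.10.9. Sequences are from RefSeq, GRCm38.p6, and 7949 of the listed genes had a promoter entry.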

Additional observations from a re-analysis of the deposited data

Results flagged for a closer look

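Of the 169 genes named by rule, 7 had opposite signs in the 2 cell lines on the deposited scale, in all 3 pairs of each, as did Insl3, picked out after its values were seen, and in none of them was the difference between the lines tested. In CTCF-AID cells Tfcp2l1, Pkm, Yap1, Prmt9 and Taf1d were not called. After scaling to the same total the 7 were negative in CCNA-GFP cells too, at -0.14 for Tfcp2l1, -0.08 for Pkm, -0.35 for Psmd11, -0.20 for Psmc2, -0.18 for Yap1, -0.14 for Prmt9 and -0.06 for Taf1d. The naive factor Tfcp2l1 was lower in mitosis in CCNA-GFP cells (0.33) and at -0.19 in CTCF-AID cells without IAA. Pkm, the glycolytic pyruvate kinase, was at 0.49 and -0.24. Psmd11, a subunit of the proteasome lid, was at 0.16, not called, and -0.41, called higher in mitosis in CTCF-AID cells. Psmc2, a proteasome ATPase, was called in both, at 0.22 and -0.40, and lost its call in CCNA-GFP cells when any 1 replicate was left out (0.20 to 0.25). Yap1, the Hippo pathway coactivator, was at 0.32 and -0.16, and the arginine methyltransferase Prmt9 at 0.22 and -0.02. In CCNA-GFP cells Yap1 lost its call without replicate 3 (0.25), and Prmt9 when any 1 replicate was left out (0.18 to 0.24). Taf1d, a subunit of the RNA polymerase I factor SL1, was at 0.51 and -0.19. Insl3, a relaxin-like hormone, went the other way, at -0.33 and 0.33. The median over all genes was also smaller in CTCF-AID cells, at 0.12 against 0.33 on the deposited scale and 0.03 in both lines at the same total. On the deposited scale, of the 9574 genes listed in both lines, 678 were lower in mitosis in all pairs of CCNA-GFP cells and higher in all pairs of CTCF-AID cells, with 10 the other way round.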

How the results depend on the processing

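The counts depend on the scale. Lower in mitosis were 6975 genes as reported, 4512 at a mean of at least 1 TPM, 2457 at the same total, 4628 with no replicate block and 4656–6722 without 1 replicate. Higher in mitosis were 195, with 107 at a mean of at least 1 TPM, 62 with each library divided by its own step, 85 with steps rescaled to a geometric mean of 1, 2016 at the same total, 76 with no replicate block, 107 at an adjusted p under 0.01 and 128–197 without 1 replicate. Held equal were 1331, with 66 and 472 at pseudocounts of 0.1 and 0.5, 300 at a mean of at least 1 TPM, 3301 with each library divided by its step, 620 with rescaled steps, 4903 at the same total, 602 with no replicate block and 700–997 without 1 replicate. The median difference of 0.33 was 0.58 and 0.43 at pseudocounts of 0.1 and 0.5, 0.46 with rescaled steps, 0.03 at the same total and 0.28–0.37 without 1 replicate. In CTCF-AID cells 3143 lower became 712 with no replicate block, 6602 with rescaled steps and 669–2540 without 1 replicate, and 459 higher became 1938 at the same total, 76 with no block, 150 with rescaled steps and 80–285 without 1 replicate.

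At the same total, 26 of 139 genes followed turned sign with a call on either scale: H2afj -0.56, Rps19 -0.51, Rplp2 -0.51, Pou5f1 -0.05, Sall4 -0.18, Tfcp2l1 -0.14, Cdc20 -0.19, Ccnb1 -0.47, Cdk1 -0.03, E2f4 -0.08, Rb1 -0.36, Stag2 -0.08, Meg3 -0.21, Mdm4 -0.42, Sesn2 -0.35, Pkm -0.08, Nop58 -0.41, Psmd11 -0.35, Taf1d -0.06, Mtf2 -0.47, Gtse1 -0.56, Bub3 -0.49, Hspd1 -0.55, Psmc2 -0.20, Prmt9 -0.14 and Yap1 -0.18. Another 12 lost their call, Nanog (0.19) and Klf4 (0.18) among them, and 7 gained one, and the medians of 12 of 45 gene lists were negative. Under the other settings, 1 of which (a mean of at least 1 TPM) held 128 of these genes, none turned sign with a call on either side, while several genes near zero and not called changed sign. With each library divided by its step 13 lost and 8 gained a call, and with rescaled steps 12 lost and 9 gained one. With rescaled steps the calls of Rpl13a (-0.19), E2f1 (-0.07), Neat1 (-0.14), Cox8a (-0.04), Ddit4 (-0.21), Hspg2 (-0.15) and Insl3 (-0.15) were lost beside those named above, and Fos (0.57), Gbx2 (0.55), Mtf2 (0.34), Psmd11 (0.36) and Sesn2 (0.38) were called lower in mitosis. Ddit3 was not called with each library divided by its step (-0.27). Leaving out replicates 1, 2 and 3 lost 12, 10 and 17 calls and gained 3, 1 and 1. Without the replicate block 26 lost their call, Pou5f1, Sall4, Tfcp2l1, Klf4, Nr0b1, Cdc20, E2f1, Rpl13a, Neurod1, Meg3, Neat1 and Ncapd3 among them, and no other call changed. The causes were not tested. With the depth unknown, low levels carry a counting error that could not be given.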

Other observations

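Chromatin regulators were lower in mitosis at about the share of all genes (70.4%). DNA methylation genes had 10 of 12 called lower (median 0.44) and Polycomb genes 22 of 29 (0.27). Histone-modifying enzymes had 48 of 64 (0.34) and chromatin remodellers 35 of 45 (0.37). Chd4 was the single chromatin remodeller called higher (-0.50). After scaling to the same total these groups had 6, 7, 13 and 7 lower and 2, 3, 15 and 12 higher. Over all genes 24.8% were then lower and 20.3% higher. Tet2, which oxidises methylated cytosine, fell furthest of the first group, from 5.63, 2.65 and 10.0 to 2.51, 1.46 and 3.82 TPM, with overlap between the groups (0.89, SE 0.13). Mtf2, a Polycomb partner and the most abundant of its list, was at 13.8, 13.3 and 23.7 TPM against 13.9, 13.6 and 18.1 TPM and was not called (0.11, or -0.47 at the same total).

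The nuclear lamina gene Lmnb1 went from 7.16, 8.69 and 11.8 to 3.59, 4.19 and 4.92 TPM without overlap (0.95, SE 0.13), and 9 of 12 lamina and envelope genes were called lower (3 lower and 3 higher after scaling). Against 70.4% of all genes lower and 1.97% higher, solute carriers had 123 of 177 called lower and 3 higher (median 0.31). With scaling they had 41 lower and 29 higher, against 24.8% and 20.3% of all genes. Slc25a5, the mitochondrial ADP/ATP carrier, was at 4.50, 3.06 and 5.52 TPM and fell to 1.64, 1.26 and 1.46 TPM (1.10, SE 0.12). Among oxidative phosphorylation genes Cox17, a copper chaperone, fell from 2.03, 2.19 and 2.27 to 0.31, 0.63 and 0.25 TPM (1.19, SE 0.16), while the cytochrome oxidase subunit Cox8a was at 6.41, 4.54 and 6.74 TPM against 7.80, 5.88 and 7.87 TPM, higher in each pair with overlap (-0.25), and was not called when any 1 replicate was left out, at -0.22 to -0.28.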
